A study of Mus musculus with 16 samples.

Results

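Coagulation and complement genes were followed in the livers of 16 C57BL/6 mice aged 22 weeks, from a model of diet-induced obesity and fatty liver. The list held 38 genes of the clotting cascade, its inhibitors, fibrinolysis and the complement system, picked by name. Gene identifiers of the count table were matched to mouse symbols, and 37 of the 38 had a row, in a table of 46078 genes. The exception, Klkb1, which encodes plasma prekallikrein, was not analysed here. All 37 passed the low-count filter that left 12910 genes for testing, and none was at 0 in any library. The 4 groups had 4 libraries each. Dicretin mice received a co-agonist of the GLP1 and glucagon receptors (GLP1R and GCGR). Semaglutide mice received a GLP1R agonist. Calorie-restricted mice lost a like amount of weight by diet, per the series' design, and saline mice received vehicle. All 4 groups came from this model, so no group of never-obese animals enters any comparison. Not given in the sources used here were doses, routes, duration and sex.

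The liver makes most circulating clotting and complement proteins. In coagulation, a contact branch (F12, F11) and a tissue factor branch (F7) activate F10, which with its cofactor F5 turns prothrombin (F2) into thrombin. Thrombin cuts fibrinogen (Fga, Fgb, Fgg) into fibrin, antithrombin (Serpinc1) and the protein C system (Proc, Pros1) restrain it, and plasmin from Plg dissolves the clot. In complement, lectins (Mbl1, Mbl2) with their proteases (Masp1, Masp2), and the alternative pathway enzyme Cfb, lead to cleavage of C3. C5 (encoded by Hc in the mouse), C6, C8 and C9 then assemble into a membrane pore. Several of these genes are known as acute-phase genes of hepatocytes, the main cell type of the liver.

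Libraries held 12143829 to 18755393 counts assigned to genes. The 37 genes took 3.785 ± 0.4805% of counts in Dicretin, 3.861 ± 0.4811% in Semaglutide, 3.925 ± 0.3413% in calorie restriction and 3.532 ± 0.1944% in saline (SD, n = 4 each), with overlapping ranges. Semaglutide 11 and Dicretin 14 had the lowest and the highest scaling factor of the 16 libraries (0.8525 and 1.122), and calls lost without either are named beside their values. Summed hepatocyte markers (4 of 5 in the table, none at 0) were at 68230 to 87730 CPM in Dicretin, 109800 to 139900 CPM in Semaglutide, 118200 to 137200 CPM in calorie restriction and 89850 to 109900 CPM in saline. CPM is a gene's count scaled to a common library total, after TMM adjustment of the totals. The sum was lower in every Dicretin library than in every saline library, but the single markers differed: 1 of the 4 was called lower in Dicretin and 1 higher, with log2 fold changes from -0.68 to 0.63. Their part in the results below was not tested. In whole liver, fewer cells of a type and less RNA per cell cannot be told apart. The labels give separate mice only as separate samples, so p-values measure the spread between those samples.

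Levels of the 37 genes spanned a wide range. Per kilobase of annotated exon, the 3 fibrinogen chains, vitronectin and C3 stood at the top over all 16 libraries, with 1415 CPM per kb for Fgg, 1234 for Fga, 1160 for Vtn, 1112 for C3 and 991.8 for Fgb. In saline livers the order at the top was Fgg (1323), Fga (1118), Fgb (964.4), Vtn (889.3) and C3 (788.5 CPM per kb), whereas in Dicretin livers C3 (1491) and Vtn (1423) were above Fgg (1225), Fga (1176) and Fgb (824.6 CPM per kb). The least abundant was Masp1, a lectin-pathway protease, at 3.205 CPM per kb, with Cfb at 5.282 and C2 at 8.382. The median coefficient of variation within groups was 13.6% for the 37 genes and 19.7% for all tested genes.

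**Figure D1:**
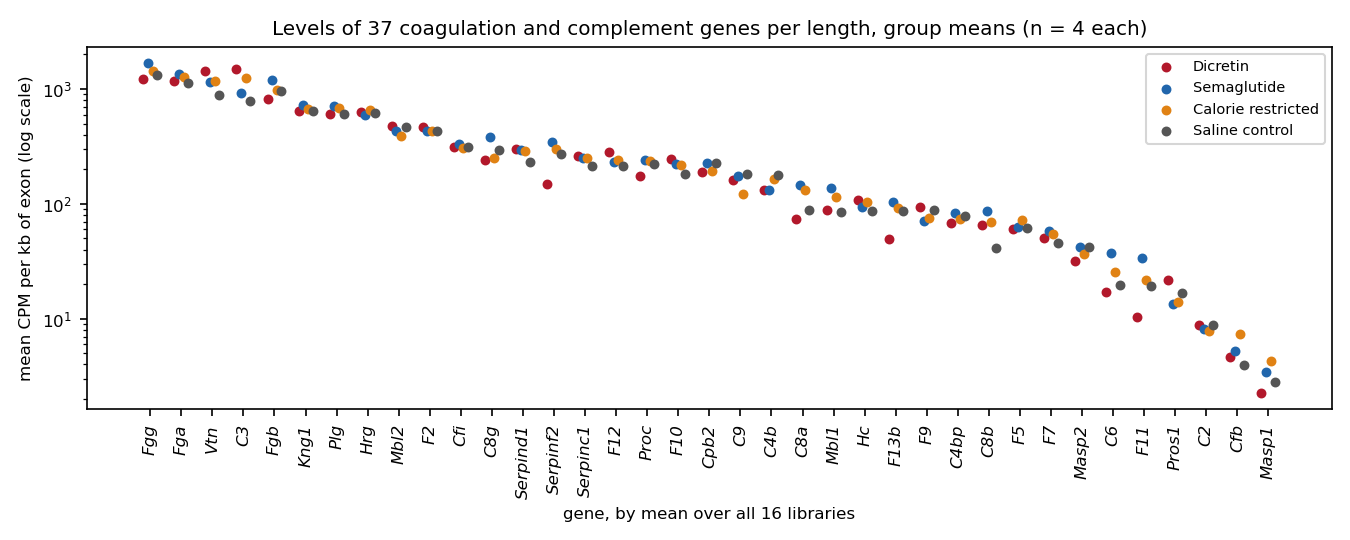
Mean level per kilobase of annotated exon (CPM per kb, log axis) of 37 coagulation and complement genes, ordered by the mean over 16 libraries, with 1 point for each of Dicretin, Semaglutide, calorie-restricted and saline livers (n = 4 each). The red Dicretin points of F11, F13b and Serpinf2 sit below the other 3 groups, and those of C3 and Vtn sit above them.

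Several gene models share sequence with neighbours, which bears on their counts. Cfb and C2 lie inside the exons of a read-through gene, Gm20547, on the same strand. Gm20547 had 0 counts in every library, and 20.5% of Cfb exon bases and 53.1% of C2 exon bases lie outside any other gene. Levels of Cfb and C2 are therefore uncertain. Masp2 shares all but 45.1% of its exon bases with Tardbp on the opposite strand, and whether counting used strand is not given in the sources used here. C4b has a near-identical copy, C4a, with 48 to 528 counts per library. For the other 33 genes, between 65.6% (Serpinc1) and 100% of exon bases were unshared.

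Dicretin against saline asks what the co-agonist did to these transcripts in livers of this obesity model. Dicretin livers had more mRNA for C3, the central complement protein, and for vitronectin, and smaller gains for the proteases F12 and F10 and the cofactor Pros1. They had less mRNA for F11 of the contact branch, for the factor XIII carrier subunit F13b, for the plasmin inhibitor Serpinf2 and for Masp2. In all, 5 of the 37 genes rose and 4 fell in edgeR's quasi-likelihood test (Benjamini-Hochberg adjusted p under 0.05), which is 24.3% of the 37 beside 36.7% of all tested genes (17.5% higher, 19.2% lower). With upper quartile scaling the split was 3 higher and 5 lower, beside 36.4% of all tested genes called. A fit of only these 2 groups called 6 (2 higher, 4 lower), beside 35.3% of all tested genes, and 5 of the reported 9 were kept. With Semaglutide 11 and Dicretin 14 left out, 12 were called (7 higher, 5 lower), beside 42.4% of all tested genes. The median absolute log2 fold change was 0.26 for the 37 genes and 0.46 for all tested genes. The 37 ranged from -0.88 to 0.92, and 0 of them passed a 2-fold change, a size that 18.3% of all tested genes passed.

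**Figure D2:**
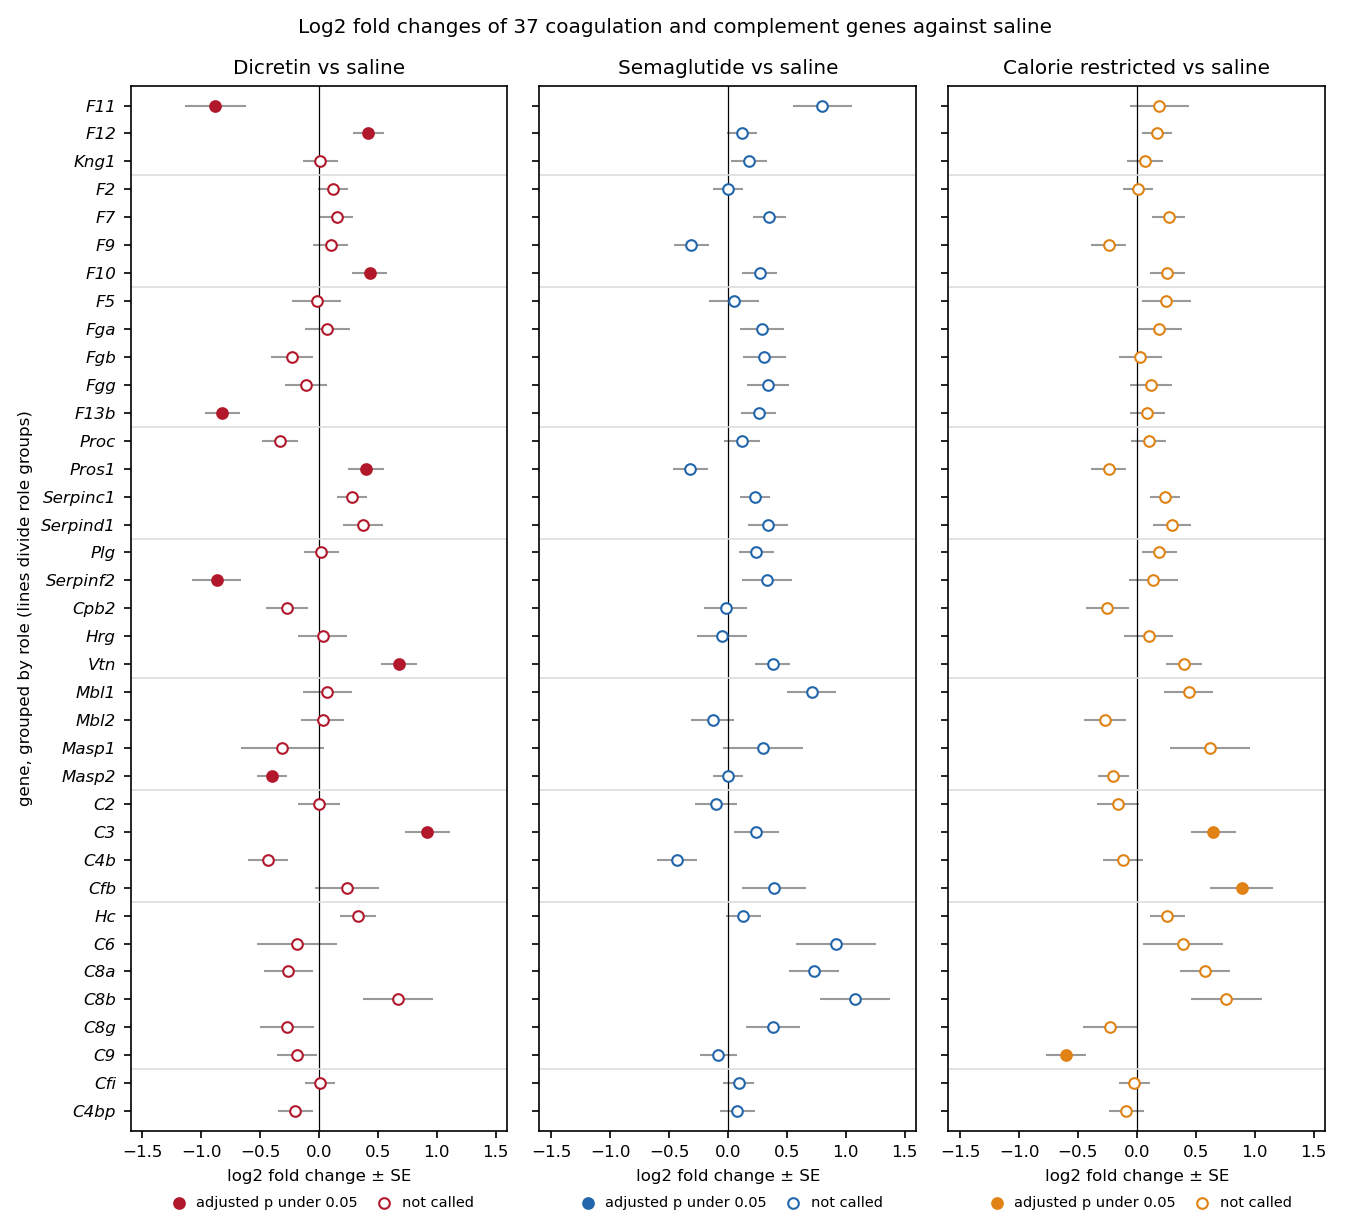
Log2 fold change ± SE (x axis) of 37 coagulation and complement genes (y axis, in role groups) for Dicretin, Semaglutide and calorie restriction, each against saline (n = 4 each, the same saline libraries in all 3 panels). Filled points passed an adjusted p of 0.05: 9 genes for Dicretin, 0 for Semaglutide and 3 for calorie restriction.

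Serpinf2 encodes alpha-2-antiplasmin, the main inhibitor of plasmin. Its level was 218.5, 516.5, 294.5 and 364.0 CPM in Dicretin livers, against 563.9, 589.6, 649.4 and 737.5 CPM in saline livers. Every Dicretin library was below every saline library, with Dicretin 23 nearest to them. The log2 fold change was -0.87 ± 0.21 (SE, adjusted p = 0.00318). The other genes that act directly on fibrinolysis were not called. Plg, the plasmin precursor, had a log2 fold change of 0.02 ± 0.15, Cpb2, whose product protects fibrin from plasmin, -0.27 ± 0.18, and Hrg, a plasma glycoprotein that binds plasminogen, 0.03 ± 0.21.

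F13b encodes the carrier subunit of factor XIII, which crosslinks fibrin. Libraries of the Dicretin group had 130.2, 130.5, 85.17 and 150.2 CPM of F13b, against 217.7, 210.8, 195.8 and 252.8 CPM in saline. The groups did not overlap, and the log2 fold change was -0.82 ± 0.15 (adjusted p = 0.000411). F11, the contact-branch protease that activates F9, had 19.71, 40.64, 15.79 and 17.41 CPM in Dicretin and 46.70, 41.46, 37.76 and 46.56 CPM in saline. Dicretin 23, at 40.64 CPM, lay inside the saline range, and the other 3 Dicretin libraries lay below it. The log2 fold change of F11 was -0.88 ± 0.26 (adjusted p = 0.0114), and without Dicretin 23 it was -1.27 (adjusted p = 0.000181).

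C3 had 6457, 9008, 8206 and 7009 CPM in Dicretin livers and 4037, 3468, 3877 and 4838 CPM in saline livers. All 4 Dicretin values exceeded all saline values, and the log2 fold change was 0.92 ± 0.19 (adjusted p = 0.00125). Vtn encodes vitronectin, a plasma protein that blocks the membrane pore of complement. It stood at 2238, 3507, 3195 and 2613 CPM in Dicretin and 1677, 1614, 1993 and 1937 CPM in saline. Again there was no overlap, with a log2 fold change of 0.68 ± 0.15 (adjusted p = 0.00174). The calls of Serpinf2, F13b, F11, C3 and Vtn held under all 25 alternatives of scaling, filter, test and left-out libraries.

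To show the promoters of these 5 genes, the 250 bases before the RefSeq start (GRCm38.p6) are printed 5′ to 3′ on the coding strand, with capitals at matches to a C/EBP motif. They lie at chr11:75439502-75439751 (minus strand) for Serpinf2, chr1:139501457-139501706 (plus strand) for F13b, chr8:45262032-45262281 (minus strand) for F11, chr17:57228137-57228386 (minus strand) for C3 and chr11:78498870-78499119 (plus strand) for Vtn.
Serpinf2: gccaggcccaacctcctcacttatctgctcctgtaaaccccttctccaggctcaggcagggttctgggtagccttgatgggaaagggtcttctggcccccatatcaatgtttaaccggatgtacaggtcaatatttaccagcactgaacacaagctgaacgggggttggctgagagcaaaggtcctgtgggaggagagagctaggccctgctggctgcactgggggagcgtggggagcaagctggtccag
F13b: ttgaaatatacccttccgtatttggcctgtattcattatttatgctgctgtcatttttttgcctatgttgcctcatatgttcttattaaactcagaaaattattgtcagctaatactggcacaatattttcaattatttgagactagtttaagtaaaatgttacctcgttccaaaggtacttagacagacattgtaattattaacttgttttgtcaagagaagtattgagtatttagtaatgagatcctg
F11: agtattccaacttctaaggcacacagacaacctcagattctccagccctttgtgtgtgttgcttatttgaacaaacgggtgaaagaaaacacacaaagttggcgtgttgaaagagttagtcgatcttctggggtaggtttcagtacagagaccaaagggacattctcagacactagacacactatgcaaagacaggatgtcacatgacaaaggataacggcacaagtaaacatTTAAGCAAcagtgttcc
C3: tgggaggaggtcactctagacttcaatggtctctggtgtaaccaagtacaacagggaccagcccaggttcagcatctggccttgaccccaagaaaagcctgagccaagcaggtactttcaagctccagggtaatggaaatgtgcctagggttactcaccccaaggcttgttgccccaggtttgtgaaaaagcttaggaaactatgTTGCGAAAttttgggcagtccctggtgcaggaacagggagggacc
Vtn: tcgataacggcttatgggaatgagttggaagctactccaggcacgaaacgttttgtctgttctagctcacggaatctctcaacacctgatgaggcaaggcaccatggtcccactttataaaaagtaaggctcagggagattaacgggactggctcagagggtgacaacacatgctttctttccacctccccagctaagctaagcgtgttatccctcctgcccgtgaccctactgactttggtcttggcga
The C/EBP motif was TTGCNNAA, read on both strands, and C/EBP factors are known activators of acute-phase genes. It occurred in F11 as TTAAGCAA, 17 bases before the start, and in C3 as TTGCGAAA, 45 bases before it. Neither orientation occurred in the windows of Serpinf2, F13b or Vtn. Promoters of the same table were available for 30 of the 38 genes, and 8 of these held the motif (F11, Klkb1, F9, Fga, Fgb, Hrg, C3 and C9), beside 9.56% of 32851 mouse promoters. The core TGACG of the cyclic AMP response element, the site of CREB, which acts downstream of the glucagon receptor, occurred in 5 of 30 (F2, F9, Cpb2, Masp2 and C4bp) and in 17.8% of all promoters. A STAT motif, TTCCNGGAA, occurred in Fga and Pros1 and in 0.913% of all promoters. An HNF4 motif, CAAAGTCCA, and an HNF1 motif matched 0 of the 30 windows, beside 0.384% and 0.00913% of all promoters. All motifs were searched on both strands and none contains another. A match describes letters in the window and not a bound site.

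Smaller differences were found in 4 further genes. F12, the protease that starts the contact branch, had 447.9, 654.9, 583.0 and 554.3 CPM in Dicretin and 408.4, 392.7, 435.2 and 437.6 CPM in saline. The ranges did not overlap, although Dicretin 14 was close to saline, and the log2 fold change was 0.42 ± 0.13 (adjusted p = 0.017). F12 lost its call only when the fit was confined to these 2 groups (adjusted p = 0.0509). F10, the protease that forms the prothrombin-cleaving complex, had 545.6, 802.7, 679.4 and 657.3 CPM in Dicretin and 435.6, 463.0, 522.1 and 575.9 CPM in saline. Dicretin 14 overlapped the saline range, and the log2 fold change of 0.43 ± 0.15 (adjusted p = 0.0309) was not called without Dicretin 23, Dicretin 64, saline 35 or saline 50 (adjusted p of 0.0529 to 0.094). The F10 call was also lost with upper quartile factors or with only these 2 groups fitted. Masp2, which cleaves C4 and C2, had 84.58, 118.7, 94.45 and 124.6 CPM in Dicretin and 139.8, 129.2, 140.4 and 146.6 CPM in saline. These did not overlap, and the log2 fold change was -0.40 ± 0.13 (adjusted p = 0.0222). The Masp2 call was lost without Dicretin 14, Dicretin 64, saline 35, saline 73 or saline 78 (adjusted p of 0.0516 to 0.0866). It was also lost with no low-count filter or with only these 2 groups fitted.

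Of the 4 anticoagulants, Pros1 alone was called in the reported fit. Pros1 encodes protein S, the cofactor of activated protein C. It had 102.8, 110.6, 79.74 and 65.30 CPM in Dicretin and 73.51, 65.48, 70.42 and 63.10 CPM in saline. Dicretin 65 lay inside the saline range, and the log2 fold change of 0.40 ± 0.15 was just past the threshold (adjusted p = 0.0491). Without any 1 of Dicretin 14, Dicretin 23, Semaglutide 15, calorie restricted 8, calorie restricted 79 or the 4 saline libraries, the Pros1 call was lost (adjusted p of 0.0552 to 0.145). Upper quartile factors, no low-count filter, limma-voom or a fit of only these 2 groups lost it too. Proc, the precursor of activated protein C, had a log2 fold change of -0.33 ± 0.15 (adjusted p = 0.102). Serpinc1, antithrombin, had 0.28 ± 0.13 (adjusted p = 0.0981), and Serpind1, heparin cofactor II, 0.37 ± 0.17 (adjusted p = 0.0834). None of these 3 was called in the reported fit. Without Dicretin 14, Serpinc1 (log2 fold change 0.37, adjusted p = 0.0357) and Serpind1 (0.52, adjusted p = 0.0143) were called higher. Both were also called without Semaglutide 11 and Dicretin 14 (adjusted p = 0.0112 and 0.00864). Serpinc1 was called by the DESeq2 Wald test (adjusted p = 0.0247) and Serpind1 without saline 78 (adjusted p = 0.0413).

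**Figure D3:**
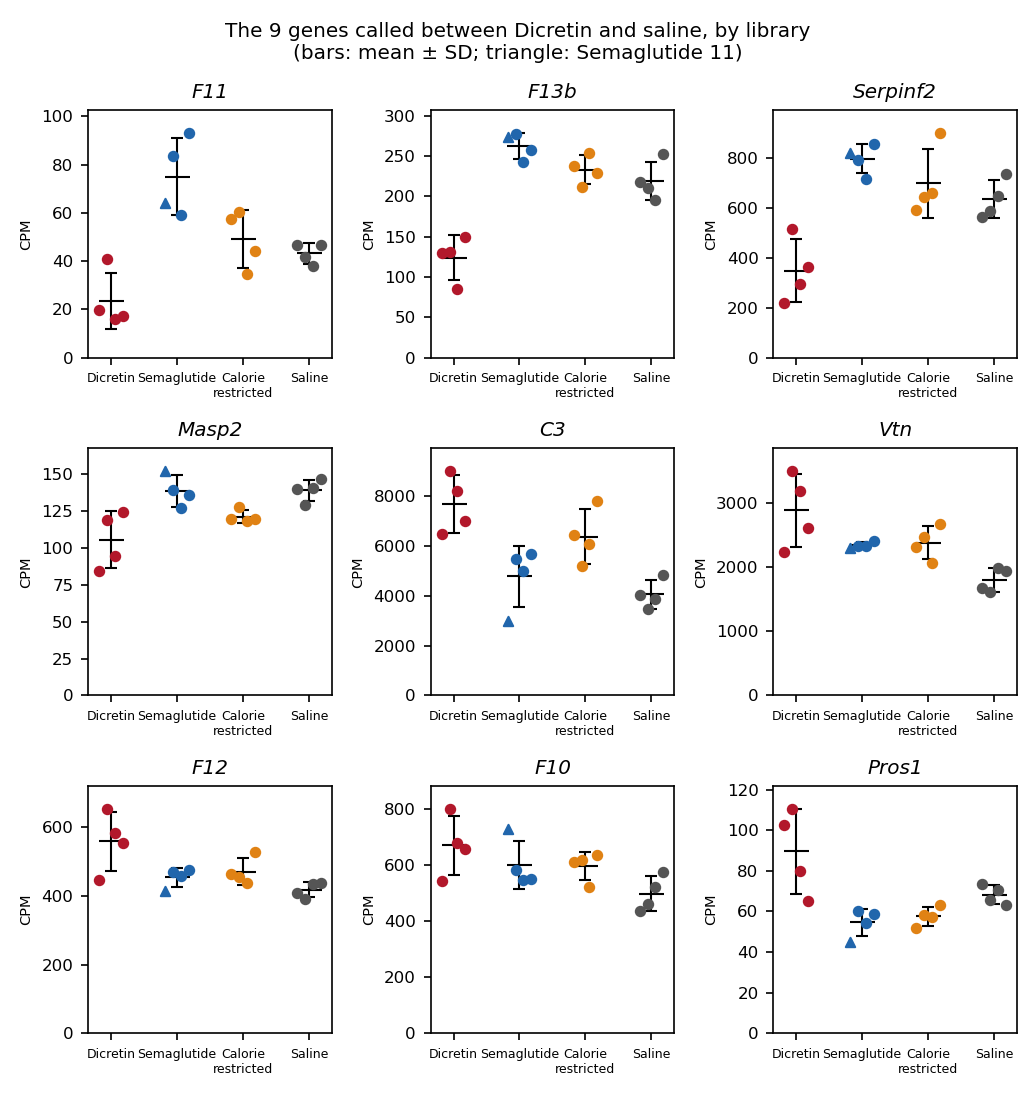
CPM by library (y axis) of the 9 genes called between Dicretin and saline, in Dicretin, Semaglutide, calorie-restricted and saline livers, with bars at mean ± SD (n = 4) and Semaglutide 11 as a triangle. F13b, Serpinf2, C3 and Vtn do not overlap between Dicretin and saline, and 1 Dicretin library of F11, at 40.64 CPM, lies in the saline range.

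The remaining 28 genes were not called against saline. Among the vitamin K-dependent proteases, F2, F7 and F9 had log2 fold changes of 0.12 ± 0.13, 0.15 ± 0.14 and 0.10 ± 0.15. F5 was at -0.02 ± 0.21 and the kininogen gene Kng1 at 0.01 ± 0.15. C4b, the lectin and classical pathway substrate, came closest to the threshold, with 751.2, 904.1, 750.8 and 623.3 CPM in Dicretin and 1109, 1035, 992.6 and 935.6 CPM in saline. Its groups did not overlap, and the log2 fold change was -0.43 ± 0.17 (adjusted p = 0.0558). C4b was called without Dicretin 23 (adjusted p = 0.0406) or Semaglutide 11 (adjusted p = 0.0319). The copy C4a, given here because it shares sequence with C4b, fell by 2.49 ± 0.38 on the log2 scale (adjusted p = 6.43e-05) to 5.004 ± 1.379 CPM in Dicretin, against 28.07 ± 8.145 CPM in saline (SD, n = 4). C4a was named after its value was seen. Of the 6 terminal pathway genes, 0 were called in the reported fit and their log2 fold changes ran from -0.27 to 0.67. C8b, at 0.67 (adjusted p = 0.0927), was called higher without Dicretin 14 (0.89, adjusted p = 0.0212) or saline 78 (0.96, adjusted p = 0.0218). It was also called without Semaglutide 11 and Dicretin 14 (0.87, adjusted p = 0.0419). Hc was called higher without Dicretin 65 (0.44, adjusted p = 0.0287). The regulators Cfi, which cleaves C3b and C4b, and C4bp, its cofactor, were at 0.01 and -0.20.

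Fibrinogen was not called in Dicretin, Semaglutide or calorie restriction against saline. Its 3 chain genes lie within 42.1 kb of chromosome 3 (83007724 to 83049863, GRCm38), and the protein contains equal numbers of each chain. Against saline, log2 fold changes in Dicretin were 0.07 ± 0.19 for Fga, -0.23 ± 0.18 for Fgb and -0.11 ± 0.18 for Fgg. The ratios between chains, which need no scaling between libraries, differed. The ratio of Fgb to Fga counts per kilobase of exon was 0.739, 0.782, 0.693 and 0.598 in Dicretin, against 0.868, 0.836, 0.893 and 0.855 in saline. The ratio of Fgg to Fga was 1.06, 1.06, 1.02 and 1.03 in Dicretin and 1.19, 1.18, 1.25 and 1.13 in saline. Neither ratio overlapped between Dicretin and saline, and these ratios were not tested. Calorie-restricted livers had Fgb to Fga ratios of 0.794, 0.887, 0.712 and 0.719 and overlapped both groups. Semaglutide 11 had 1.06 for Fgb to Fga and 1.58 for Fgg to Fga, above the other 3 Semaglutide libraries (0.811 to 0.836 and 1.11 to 1.16).

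**Figure D4:**
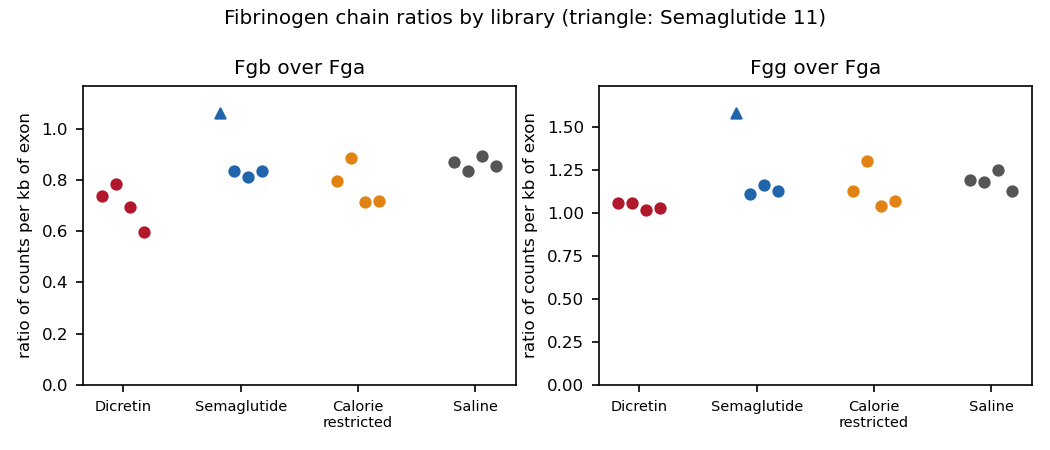
Ratio of counts per kilobase of exon (y axis) of Fgb over Fga and of Fgg over Fga in each Dicretin, Semaglutide, calorie-restricted and saline library. The 4 Dicretin points are below the 4 saline points in both panels, and Semaglutide 11, the triangle, is the highest point of all.

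Semaglutide against saline asks the same of a GLP1R agonist alone. Livers of the Semaglutide group had higher mean levels of several terminal complement transcripts, without a call. In edgeR 0 of the 37 genes passed the threshold, beside 4.18% of all tested genes (1.56% higher, 2.62% lower). At an unadjusted p under 0.05 there were 8 (7 higher, 1 lower), which is 21.6% of the 37, beside 18.7% of all tested genes (9.33% higher, 9.42% lower). The DESeq2 Wald test called 4 of the 37, beside 7.01% of all genes, and limma-voom called 1, beside 4.26%. The median log2 fold change of the 37 was 0.24, beside 0 for all tested genes, and the range was -0.43 to 1.08.

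C8b, a subunit of the membrane pore, had 179.4, 290.6, 178.8 and 242.5 CPM in Semaglutide livers and 82.22, 78.28, 96.89 and 164.9 CPM in saline livers. All Semaglutide values were above all saline values, by a log2 fold change of 1.08 ± 0.30 (adjusted p = 0.0516). Mean C8b was also above saline (105.6 ± 40.36 CPM) in calorie restriction (178.4 ± 40.82 CPM) and in Dicretin (167.4 ± 78.37 CPM, SD, n = 4 each). Neither was called in the reported fit. C8a, which pairs with C8b in the pore, had 334.2, 650.2, 526.1 and 609.7 CPM in Semaglutide and 304.8, 297.9, 261.1 and 411.9 CPM in saline. Semaglutide 11 was inside the saline range, and the log2 fold change was 0.73 ± 0.21 (adjusted p = 0.0512). Without Semaglutide 11, C8a was called with a log2 fold change of 0.90 (adjusted p = 0.00864). The lectin gene Mbl1 was at 310.3, 178.9, 188.8 and 189.9 CPM in Semaglutide and 120.9, 129.3, 133.5 and 148.1 CPM in saline, with no overlap and a log2 fold change of 0.71 ± 0.21 (adjusted p = 0.0616). F11 had 64.20, 83.53, 59.23 and 93.16 CPM in Semaglutide, all above saline, and a log2 fold change of 0.80 ± 0.25 (adjusted p = 0.0839), and was called without Dicretin 23 (adjusted p = 0.0168). For C6 the values were 79.35, 176.0, 106.9 and 165.7 CPM in Semaglutide and 68.51, 70.77, 50.42 and 89.82 CPM in saline. Semaglutide 11 lay inside the saline range, and the log2 fold change was 0.92 ± 0.34 (adjusted p = 0.147). Vtn (0.38 ± 0.15), F7 (0.35 ± 0.14) and C4b (-0.43 ± 0.17) also had an unadjusted p under 0.05. In all, 3 of the 37 genes were called without Dicretin 14 or Dicretin 64, 2 without Dicretin 23, Dicretin 65 or saline 78, and 1 without Semaglutide 11. In these fits 3.42% to 5.94% of all tested genes were called.

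Calorie restriction against saline asks what weight loss by diet did. C3 and the alternative pathway protease Cfb rose and the pore protein C9 fell. The 3 genes are 8.11% of the 37, beside 7.53% of all tested genes (3.42% higher, 4.11% lower). C3 had 6410, 5190, 6069 and 7806 CPM in calorie-restricted livers and 4037, 3468, 3877 and 4838 CPM in saline livers. The groups did not overlap, and the log2 fold change was 0.65 ± 0.19 (adjusted p = 0.0477). Cfb had 23.24, 10.85, 25.54 and 23.18 CPM in calorie restriction and 12.59, 9.654, 8.233 and 14.23 CPM in saline. Calorie restricted 8 lay inside the saline range and the other 3 lay above it, with a log2 fold change of 0.89 ± 0.27 (adjusted p = 0.0471). C9 had 371.6, 321.6, 267.0 and 277.2 CPM in calorie restriction and 446.6, 392.9, 409.3 and 626.4 CPM in saline. C9 was lower in every calorie-restricted library than in every saline library, by a log2 fold change of -0.60 ± 0.17 (adjusted p = 0.033).

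All 3 calorie restriction calls sat near the threshold. With upper quartile factors C3 and Cfb were lost, with limma-voom Cfb, and with no low-count filter C9. The C3 call was lost without Dicretin 64, Semaglutide 15, Semaglutide 31, calorie restricted 7, 52 or 79, or saline 35, 50 or 73 (adjusted p of 0.052 to 0.148). Cfb was lost without Dicretin 23, Dicretin 64, Semaglutide 31, calorie restricted 7, 52 or 79, or saline 35, 50 or 73 (adjusted p of 0.0509 to 0.135). C9 was lost without calorie restricted 8, 52 or 79, or saline 35, 73 or 78 (adjusted p of 0.0524 to 0.12). No gene of the 37 was called without calorie restricted 52, calorie restricted 79, saline 35 or saline 73, and 1 was called without Dicretin 64, Semaglutide 31, calorie restricted 7 or saline 50. In these fits 3.82% to 7.8% of all tested genes were called. With Semaglutide 11 and Dicretin 14 both left out, 6 were called, beside 14.4% of all tested genes. Among uncalled genes, Vtn had a log2 fold change of 0.40 ± 0.15 (adjusted p = 0.11) and C8a of 0.58 ± 0.21 (adjusted p = 0.0938), both without overlap between groups.

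Dicretin against calorie restriction sets the co-agonist beside diet at a like weight loss. F11, F13b, Proc, Serpinf2, Masp1 and C8a were lower in Dicretin and Pros1 was higher. C3 and Vtn, both higher in Dicretin than in saline, were not called here. C3 averaged 7670 ± 1153 CPM in Dicretin and 6369 ± 1087 CPM in calorie restriction (SD, n = 4 each). Vtn had a log2 fold change of 0.28 (adjusted p = 0.169), and was called without Dicretin 14 (0.38, adjusted p = 0.0391). The 7 called genes (1 higher, 6 lower) are 18.9% of the 37 genes, beside 31.3% of all tested genes (15.1% higher, 16.2% lower). Without Dicretin 14 the split was 4 higher and 4 lower, beside 33.8% of all tested genes called. With Semaglutide 11 and Dicretin 14 left out, 12 were called (6 higher, 6 lower), beside 40.3% of all tested genes. Serpinf2 had 590.1, 644.7, 658.6 and 901.5 CPM in calorie-restricted livers, above the 218.5 to 516.5 CPM of Dicretin livers given earlier, and a log2 fold change of -1.0 ± 0.21 (adjusted p = 0.00134). F13b had 237.6, 211.3, 254.6 and 229.3 CPM in calorie restriction, all above Dicretin, and a log2 fold change of -0.91 ± 0.15 (adjusted p = 0.000215). F11 had 57.23, 60.34, 34.65 and 44.09 CPM in calorie restriction, where calorie restricted 52 lay below Dicretin 23, and a log2 fold change of -1.07 ± 0.26 (adjusted p = 0.00405).

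Pros1 was at 51.80, 58.35, 57.21 and 63.26 CPM in calorie-restricted livers, below all 4 Dicretin libraries, which gave a log2 fold change of 0.64 ± 0.15 (adjusted p = 0.00406). C8a had 256.7, 291.6, 329.3 and 190.6 CPM in Dicretin and 549.6, 460.6, 424.0 and 468.2 CPM in calorie restriction. C8a did not overlap, and its log2 fold change was -0.83 ± 0.21 (adjusted p = 0.00513). The calls of Serpinf2, F13b, F11, Pros1 and C8a held under all 25 alternatives. Masp1 had 26.30, 25.49, 14.70 and 22.26 CPM in Dicretin and 48.94, 30.17, 47.53 and 43.22 CPM in calorie restriction, with a log2 fold change of -0.94 ± 0.35 (adjusted p = 0.0478). The Masp1 call was lost without any 1 of 13 libraries, all but Semaglutide 11, Semaglutide 15 and calorie restricted 8 (adjusted p of 0.0502 to 0.128). It was also lost with DESeq2 size factors, no low-count filter or limma-voom. Proc averaged 436.0 ± 93.18 CPM in Dicretin and 588.5 ± 69.06 CPM in calorie restriction (SD, n = 4 each), a log2 fold change of -0.43 ± 0.15 (adjusted p = 0.0394). The Proc call was lost without Dicretin 14, Dicretin 65, Semaglutide 31 or calorie restricted 7, 8 or 79 (adjusted p of 0.0524 to 0.117). No low-count filter or a fit of only these 2 groups lost it too.

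Semaglutide against calorie restriction gave no call. In edgeR 0 of the 37 genes passed, beside 6.12% of all tested genes (3.05% higher, 3.07% lower), and limma-voom called 0. At an unadjusted p under 0.05 there were 4, which is 10.8% of the 37, beside 23.2% of all tested genes. The DESeq2 Wald test called 1, beside 9.45% of all genes. The nearest was C9, at 477.3, 438.4, 412.3 and 451.5 CPM in Semaglutide and 371.6, 321.6, 267.0 and 277.2 CPM in calorie restriction. C9 did not overlap between them, with a log2 fold change of 0.52 ± 0.17 (SE, adjusted p = 0.0659). C9 was called without saline 78 (log2 fold change 0.52, adjusted p = 0.0432), and C8g without Semaglutide 51 (log2 fold change 0.78, adjusted p = 0.0394). The median absolute log2 fold change of the 37 genes was 0.16, beside 0.29 for all tested genes.

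Dicretin against Semaglutide compares the 2 agonists, at doses not given in the sources used here. F9, Pros1 and C3 were higher in Dicretin, while F11, Fgb, F13b, Proc, Serpinf2, Mbl1, Masp2, C6, C8a and C8g were lower. These 13 are 35.1% of the 37 genes, beside 32% of all tested genes (14.8% higher, 17.1% lower). The split of 3 higher and 10 lower became 5 and 5 without Dicretin 14, beside 28.9% of all tested genes called. It became 6 and 6 without Semaglutide 11 and Dicretin 14, beside 34.9%. Without Dicretin 65, 7 were called (2 higher, 5 lower), beside 30.4%. F11 differed most, with all 4 Dicretin values (15.79 to 40.64 CPM) below all Semaglutide values (59.23 to 93.16 CPM) and a log2 fold change of -1.68 ± 0.26 (adjusted p = 7.57e-05). Serpinf2 had 821.2, 793.4, 718.0 and 857.2 CPM in Semaglutide and a log2 fold change of -1.19 ± 0.21 (adjusted p = 0.000257). F13b had 274.1, 277.5, 242.5 and 257.8 CPM in Semaglutide and a log2 fold change of -1.08 ± 0.15 (adjusted p = 3.4e-05). Dicretin libraries were below Semaglutide libraries without overlap in each of F11, Serpinf2 and F13b.

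C8a had 334.2 to 650.2 CPM in Semaglutide, above the 190.6 to 329.3 CPM of Dicretin, and a log2 fold change of -0.99 ± 0.21 (adjusted p = 0.00128). Pros1 had 45.15, 59.99, 54.43 and 58.85 CPM in Semaglutide, below all Dicretin libraries, and a log2 fold change of 0.72 ± 0.15 (adjusted p = 0.00153). Calls of F11, Serpinf2, F13b, C8a and Pros1 held under all 25 alternatives. C3 had 3001, 5455, 4974 and 5679 CPM in Semaglutide, below all Dicretin libraries, and a log2 fold change of 0.68 ± 0.19 (adjusted p = 0.0115). Semaglutide 11 was the lowest library for C3, and leaving it out gave 0.51 on the log2 scale (adjusted p = 0.0261). The C3 call was lost when only these 2 groups were fitted (adjusted p = 0.0588). Vtn was not called (log2 fold change 0.30, adjusted p = 0.136), but was called without Dicretin 14 (0.41, adjusted p = 0.0326).

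In the terminal pathway, C8a, C8g and C6 were called between the agonists. C8g, the gamma chain of C8, had 345.1, 387.9, 379.2 and 336.2 CPM in Dicretin and 999.8, 452.0, 475.8 and 344.3 CPM in Semaglutide. Semaglutide 11 was far above the rest, and the log2 fold change of -0.65 ± 0.23 (adjusted p = 0.0417) became -0.23 (adjusted p = 0.246) without it. The C8g call was also lost without any 1 Dicretin library, calorie restricted 7, calorie restricted 52, saline 50 or saline 73 (adjusted p of 0.0542 to 0.0843). No low-count filter, limma-voom or a fit of only these 2 groups lost it too. C6 had 98.13, 70.44, 46.48 and 29.36 CPM in Dicretin and 79.35, 176.0, 106.9 and 165.7 CPM in Semaglutide, with 1 Dicretin library inside the Semaglutide range. Its log2 fold change was -1.11 ± 0.34 (adjusted p = 0.0199), and the call was lost without Dicretin 64, Dicretin 65, Semaglutide 15 or Semaglutide 51 (adjusted p of 0.0535 to 0.0653). The C6 call was also lost with no low-count filter. Hc, C8b and C9 were not called.

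**Figure D5:**
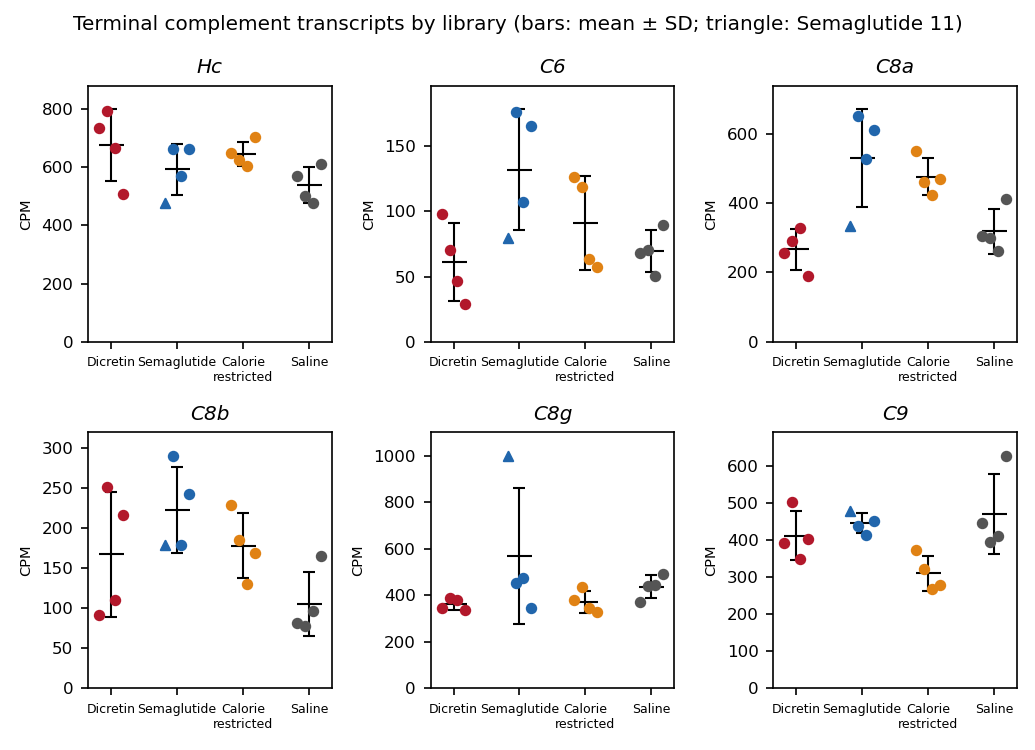
CPM by library (y axis) of Hc, C6, C8a, C8b, C8g and C9 in Dicretin, Semaglutide, calorie-restricted and saline livers, with bars at mean ± SD (n = 4) and Semaglutide 11 as a triangle. C8a is lower in all Dicretin libraries than in all Semaglutide and calorie-restricted ones, and the C8g bar of Semaglutide rests on 1 library at 999.8 CPM.

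The other 5 calls between the agonists depended on single libraries and on the processing. All 5 were lost with only these 2 groups fitted, and all but Mbl1 with no low-count filter. F9 was also lost with upper quartile factors and with limma-voom. Fgb averaged 3142 ± 911.2 CPM in Dicretin and 4540 ± 354.7 CPM in Semaglutide (SD, n = 4 each), a log2 fold change of -0.53 ± 0.18 (adjusted p = 0.0341). Fgb was not called without Dicretin 14, 64 or 65, or Semaglutide 31 or 51 (adjusted p of 0.0594 to 0.0915). Mbl1, with 92.45, 148.7, 199.4 and 117.2 CPM in Dicretin, had a log2 fold change of -0.64 ± 0.21 (adjusted p = 0.0247), and of -0.42 (adjusted p = 0.0947) without Semaglutide 11. Its call was also lost without Dicretin 14 or Dicretin 65 (adjusted p of 0.0758 and 0.0667). Masp2 had -0.39 ± 0.13 (adjusted p = 0.0264), lost without Dicretin 14, Dicretin 64, Semaglutide 11, 15 or 51 (adjusted p of 0.0501 to 0.0892). Proc had -0.45 ± 0.15 (adjusted p = 0.0325), lost without Dicretin 14, Dicretin 65, Semaglutide 15 or Semaglutide 31 (adjusted p of 0.0618 to 0.0926). F9, a protease of the clotting cascade, averaged 257.8 ± 59.67 CPM in Dicretin and 194.6 ± 12.90 CPM in Semaglutide, a log2 fold change of 0.41 ± 0.15 (adjusted p = 0.0462). The F9 call was lost without any 1 of 12 libraries, all but Dicretin 14, Dicretin 64, calorie restricted 7 and calorie restricted 52 (adjusted p of 0.0505 to 0.179).

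Related genes outside the 38 gave a wider view, from lists written with earlier results of these data known. Of 25 tested further coagulation genes, 6 rose and 6 fell in Dicretin against saline, and of 28 further complement genes 2 rose and 9 fell, beside the 17.5% of all tested genes that were higher and the 19.2% that were lower. F3, tissue factor, had 1.339 to 2.338 CPM in Dicretin and 5.467 to 7.113 CPM in saline, with a log2 fold change of -1.83 ± 0.27 (adjusted p = 5.02e-05). C1s1, a classical pathway protease, had 131.4 to 201.2 CPM in Dicretin and 379.0 to 453.0 CPM in saline (log2 fold change -1.36 ± 0.15, adjusted p = 1.55e-06). Neither F3 nor C1s1 overlapped between these groups. Cfd, the protease that activates Cfb and is known from fat tissue, had 0 to 0.4065 CPM in Dicretin, 0 to 0.9665 CPM in Semaglutide and 0 to 1.309 CPM in calorie restriction, against 12.93 to 45.38 CPM in saline. It was called lower in all 3. C1s1 has a close copy, C1s2, so its level is uncertain.

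In the other comparisons with saline, Semaglutide had 1 further coagulation gene higher and 1 lower of 25, and 0 higher and 1 lower of 28 complement genes. Calorie restriction had 3 higher and 3 lower of 25, and 1 higher and 2 lower of 28. The shares of all tested genes called were 4.18% for Semaglutide and 7.53% for calorie restriction. F3 was at 2.041 to 3.446 CPM in calorie restriction (log2 fold change -1.24 ± 0.26, adjusted p = 0.00737) and at 3.975 to 8.618 CPM in Semaglutide (0.04 ± 0.25, adjusted p = 0.95). F3 was higher in Semaglutide than in calorie restriction, by 1.28 ± 0.26 on the log2 scale (adjusted p = 0.00703).

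Genes that equip clotting factors with their vitamin K-dependent modification were measured too. Ggcx, the carboxylase, averaged 27.61 ± 5.440 CPM in Dicretin and 33.76 ± 2.338 CPM in saline (SD, n = 4 each), and was not called (adjusted p = 0.169). It was lower in Dicretin than in calorie restriction (47.29 ± 0.6886 CPM), with a log2 fold change of -0.77 ± 0.16 (adjusted p = 0.00131), and than in Semaglutide (-0.57 ± 0.16, adjusted p = 0.0106). The Ggcx call against Semaglutide was lost without Semaglutide 15 (adjusted p = 0.0501) and with only these 2 groups fitted (adjusted p = 0.0737). Vkorc1, which recycles vitamin K, had a log2 fold change of -0.75 ± 0.25 in Dicretin against Semaglutide (adjusted p = 0.027), where Semaglutide 11 stood at 126.4 CPM beside 47.89 to 62.86 CPM in the other 3. Without Semaglutide 11 the Vkorc1 call was lost, at -0.33 (adjusted p = 0.149), and without Dicretin 14 as well it was -0.21 (adjusted p = 0.307). It was also lost without Dicretin 14 (adjusted p = 0.0802), without Dicretin 23 (adjusted p = 0.0788) or with only these 2 groups fitted (adjusted p = 0.108).

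The C1q chains are made by macrophages. C1qa, C1qb and C1qc were higher in Dicretin than in calorie restriction, with log2 fold changes of 1.48 ± 0.42, 1.42 ± 0.34 and 1.36 ± 0.36 (adjusted p = 0.0136, 0.0038 and 0.00769). The C1qa call was lost with no low-count filter (adjusted p = 0.0607). C1qb had 35.83, 32.78, 60.91 and 79.67 CPM in Dicretin and 21.78, 12.53, 28.32 and 15.03 CPM in calorie restriction, without overlap. Saline livers had 37.77, 40.71, 48.99 and 43.34 CPM of C1qb, inside the Dicretin range. No C1q chain was called between Dicretin and saline. C1qb was lower in calorie restriction than in saline (log2 fold change -1.13, adjusted p = 0.0466), a call lost under 12 of the 25 alternatives. Summed Kupffer cell and macrophage markers (7 genes, none at 0) were at 157.2 to 478.1 CPM in Dicretin and 55.45 to 187.2 CPM in calorie restriction, and 5 of the 7 were called higher. In saline these markers summed to 168.5 to 250 CPM, and 0 of the 7 were called between Dicretin and saline. Their part in the C1q difference was not tested.

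Of 16 transcription factors known to act on liver plasma protein genes, 4 rose and 3 fell in Dicretin against saline, beside 17.5% and 19.2% of all tested genes. Foxa3 was at 92.41 to 121.3 CPM in Dicretin and 23.27 to 30.82 CPM in saline (log2 fold change 1.89 ± 0.16, adjusted p = 9.99e-08). Against saline, Foxa3 was also called higher in Semaglutide (0.74, adjusted p = 0.0112) and in calorie restriction (0.81, adjusted p = 0.00436). Hnf4a was at 713.6 to 874.1 CPM in Dicretin and 406.0 to 495.7 CPM in saline (0.82 ± 0.19 on the log2 scale, adjusted p = 0.00274). Stat3, which carries the acute-phase signal, had a log2 fold change of 0.85 ± 0.25 (adjusted p = 0.0112), with overlapping groups. The 3 that fell, named after their values were seen, were Nr1h4, Nr0b2 and Cebpd, and none overlapped. Nr1h4, the bile acid receptor FXR, was at 50.67 to 105.2 CPM in Dicretin and 154.5 to 173.1 CPM in saline (adjusted p = 0.000189). Nr0b2, which encodes the repressor SHP, had a log2 fold change of -1.45 ± 0.31 (adjusted p = 0.00134), and Cebpd, an acute-phase C/EBP factor, of -1.18 ± 0.31 (adjusted p = 0.00592). Cebpa (-0.34 ± 0.16) and Cebpb (0.38 ± 0.23) were not called.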

How the data were processed

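Liver messenger RNA was sequenced from directional poly(A) libraries of flash-frozen tissue extracted with Trizol, per the labels' protocols. The authors deposited whole-number read counts for each gene, without normalization. The submitters' processing notes name TopHat2 2.1.1, featureCounts and mm10. Not given in the sources used here are the annotation release and whether counting used strand. Columns were matched to samples by title, and no 2 libraries were identical. Gene symbols, positions and exon lengths came from GENCODE M21 (GRCm38), which gave a symbol for 45143 of 46078 identifiers.

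Tests ran in edgeR 4.0.16 (R 4.3.3): filterByExpr, TMM, 1 model with a mean per group over 16 libraries (glmQLFit, robust) and glmQLFTest for each of 6 comparisons. Adjustment was Benjamini-Hochberg over 12910 genes within a comparison. The SE is the absolute log2 fold change divided by the square root of F. The common biological coefficient of variation was 0.24. The scripts were tested on simulated data. Library depth was 12143829 to 18755393 counts, and log2 CPM of libraries of 1 group correlated across genes at 0.9462 to 0.9861.

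Alternatives covered scaling (size factors of DESeq2 1.42.0, upper quartile, leaving the 20 most abundant genes out of the scaling), filtering (none, or 1 CPM in at least 4 libraries), testing (DESeq2 Wald, or voom in limma 3.58.1) and samples (a fit confined to the 2 groups at hand, 1 library dropped at a time, Semaglutide 11 and Dicretin 14 dropped together). Levels in every library were given for at most 12 called genes by p in Dicretin against saline, at most 5 in each other comparison, and genes of their role groups. Further pathway genes were a panel set by name or the 4 with the smallest p in a comparison. Some genes of that panel are not reported here. The 38 genes, the role groups and all further lists were chosen with earlier results of these data known. Promoters came from a RefSeq table (GRCm38.p6).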

Additional observations from a re-analysis of the deposited data

Results flagged for a closer look

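Single libraries stood far from the other 3 of their group in 8 of 148 gene and group sets, each with a gap to its nearest neighbour that, divided by the group's range, passed Dixon's critical value for 4 samples. Chance alone gives about 1 in 20. F11 was at 40.64 CPM in Dicretin 23, beside 15.79 to 19.71 CPM in the other 3 Dicretin libraries. C2, whose level is uncertain, was at 19.6 CPM in Dicretin 14, beside 37.28 to 39.75 CPM. In Semaglutide 11, Mbl1 was at 310.3 CPM, beside 178.9 to 190 CPM, and Cfi was at 810.4 CPM, beside 706.4 to 715.4 CPM. In calorie restricted 8, Masp2 was at 127.8 CPM, beside 118.0 to 119.5 CPM, and Cfb was at 10.85 CPM, beside 23.18 to 25.54 CPM. Serpind1 was at 620 CPM in saline 78, beside 456.9 to 484.0 CPM, and Mbl2 was at 579 CPM in saline 73, beside 482.3 to 496.6 CPM.

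Semaglutide 11 and calorie restricted 8 hold 2 of these 8 values each. The deviation of Semaglutide 11 from the other 3 Semaglutide libraries moved with exon length across the 37 genes: the median log2 deviation was -0.47 for the 7 genes with over 5 kb of exon and 0.26 for the 7 with under 2 kb. Across genes, which are not independent replicates, Spearman's rho of the deviation with length was -0.40 in Semaglutide 11 and between -0.29 and 0.50 in the other 15 libraries. Saline 35 (0.50), Semaglutide 15 (0.40), Semaglutide 51 (0.39) and Dicretin 14 (0.37) had trends of like size in the other direction. In Dicretin 14 the median deviation was 0 for the genes over 5 kb and -0.43 for those under 2 kb. The part of these trends in the comparisons was not tested.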

How the results depend on the processing

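Of the 32 gene calls in the 6 comparisons, 15 were kept under all 25 alternatives, and in 800 checks 656 kept the call, 144 lost it and 0 changed direction. In Semaglutide against saline, 1 of the 37 genes was called with DESeq2 size factors, the 1 CPM filter, limma-voom or Semaglutide 11 and Dicretin 14 left out, 2 with scaling without the 20 most abundant genes or with no filter, 3 with only the 2 groups fitted and 4 with the DESeq2 Wald test, where the reported count was 0 and 1.85% to 7.01% of all genes were called. In calorie restriction against saline, 3 became 1 with upper quartile factors, 7 with only the 2 groups and 6 without Semaglutide 11 and Dicretin 14, while the share of all genes called went to 7.82%, 20.7% and 14.4%, beside 7.53% in the reported fit. In Dicretin against calorie restriction, 7 became 12 without those 2 libraries, beside 40.3% of all genes. In Semaglutide against calorie restriction, 0 became 1 with the DESeq2 Wald test. In Dicretin against Semaglutide, 13 became 7 with no filter and 6 with only the 2 groups. The share of all genes called went to 15.3% and 21.8%, beside 32% in the reported fit. The causes of all these shifts were not tested. Leaving out 1 library in turn gave 6 to 10 calls for Dicretin against saline, 0 to 3 for Semaglutide against saline, 0 to 4 for calorie restriction against saline, 5 to 8 for Dicretin against calorie restriction, 0 to 1 for Semaglutide against calorie restriction and 7 to 12 for Dicretin against Semaglutide. C3 is among the 20 most abundant genes. With those 20 left out, the genes of the 37 other than C3 held 3.876% of the remaining counts in Dicretin and 4.567% in Semaglutide. They held 4.351% in calorie restriction and 4.074% in saline. For this smaller set, which lacks C3, Dicretin and not saline had the lowest mean. No paired analysis was possible because the groups share no replicate numbers. With 4 libraries a group, differences within the intervals of a log2 fold change were not detectable, and Cfb, C2 and Masp1 rest on the fewest counts per length.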

Other observations

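In Dicretin against calorie restriction, 8 of 28 further complement genes were higher and 6 were lower, while against Semaglutide 1 was higher and 10 were lower. Of all tested genes, 15.1% were higher and 16.2% lower against calorie restriction, and 14.8% were higher and 17.1% lower against Semaglutide. C1ra, a classical pathway protease with a close copy (C1rb), was at 112.5 to 159.8 CPM in Dicretin, 255.4 to 317.4 CPM in Semaglutide and 234.6 to 288.3 CPM in calorie restriction. Its log2 fold change in Dicretin was -1.08 ± 0.13 against Semaglutide (adjusted p = 8.41e-06) and -0.95 ± 0.13 against calorie restriction (adjusted p = 3.44e-05). Dicretin did not overlap either group. Anxa2, a cell-surface partner of plasminogen activation, was at 7.164 to 9.641 CPM in Dicretin, 10.04 to 17.47 CPM in Semaglutide and 12.56 to 21.67 CPM in calorie restriction, against 24.49 to 48.61 CPM in saline. It was called lower in all 3, with log2 fold changes of -2.06 ± 0.25, -1.47 ± 0.24 and -1.16 ± 0.24 (adjusted p = 4.39e-06, 0.00174 and 0.00576 in Dicretin, Semaglutide and calorie restriction).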
